A study of Sus scrofa with 46 samples.

Results

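A set of 10 genes that carry the insulin and glucagon signals was followed in the livers of 46 newborn piglets. They were the receptors INSR and GCGR, the adaptors IRS1 and IRS2, the kinases AKT1 and AKT2, the transcription factors FOXO1 and FOXO3, the coactivator PPARGC1A and the pseudokinase TRIB3. They were taken from the table by gene symbol alone, and all 10 had a single row among its 18440 genes. All 10 also passed the low-count filter, which left 13780 genes for testing. The lowest count of any of them was 59, for TRIB3 in pig 29.

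The livers came from 13 IUGR treated piglets, 10 IUGR untreated piglets, 12 Normal treated piglets and 11 Normal untreated piglets, reared for 72 h after birth. IUGR piglets had suffered intrauterine growth restriction, which the study judged by eye from a steep forehead together with other signs at the eyes, mouth or hair, and Normal piglets were of normal size. All were Duroc-sired crossbreds from Danish Landrace × Danish Yorkshire sows, moved to a nurse sow after colostrum. By the study's design, IUGR and Normal piglets, treated and untreated, were taken from the same mothers. Treated piglets had been given the commercial energy supplement Piggy Boost, and untreated piglets had not. Mother, sex and sampling week are not in the labels used here, so these matched sets could not be used and the p-values below take the piglets as independent.

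Insulin signals that nutrients are plentiful. Its receptor INSR phosphorylates IRS1 and IRS2, these recruit a lipid kinase, and AKT1 and AKT2 are then activated. AKT phosphorylates FOXO1 and FOXO3 and so keeps them out of the nucleus, where they would otherwise raise genes of the fasted liver. Glucagon signals the opposite state through GCGR and cyclic AMP, which raises PPARGC1A, the gene of PGC-1alpha, a partner of FOXO1 at genes of glucose production. TRIB3 is a target of the stress factor ATF4, and in mouse liver its protein has been found to bind AKT. Much of this pathway works through phosphorylation, and what was measured here is mRNA only, in whole liver, in which fewer cells of a type and less RNA per cell cannot be told apart.

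Libraries held 15036591 to 19340218 counts, with 15729 to 16200 genes detected. Across all genes, 3 of them stood apart, pigs 39 and 46 among the IUGR treated piglets and pig 38 among the IUGR untreated piglets. Each of these correlated with the remaining libraries at a median of 0.765 to 0.843, where each of the 43 others did so at 0.953 to 0.966. In pigs 38, 39 and 46 the summed hepatocyte markers were 140202, 103383 and 126869 CPM. All 3 lay below the median of the other 43, 164922 CPM, but within their range of 92302 to 217392 CPM. The summed macrophage markers were 1047, 1393 and 1535 CPM, against a median of 719 CPM and a range of 521 to 1055 CPM. Pig 38 was thus within that range too, and pigs 39 and 46 were above it. Erythroid markers summed to 2665 CPM in pig 38 and 3084 CPM in pig 46, above the highest of the 43, 2519 CPM. Pig 46 was also above the 43 for stellate (1793 CPM), cholangiocyte (105.9 CPM) and immediate early genes (2526 CPM). Pig 39 was above them for endothelial (1314 CPM) and T and NK cell markers (14.6 CPM). The remaining sums of these pigs lay within the range of the 43. The 7 hepatocyte markers in the table, ALB among them, summed to at least 92302 CPM in every liver, so the tissue label fits its markers. The comparisons and correlations of the 10 genes were therefore also run over the 43 livers without these pigs, and the part that their cell composition plays was not tested. Whether the column headings of the table stand over the right libraries could not be settled. Of 5 genes taken up by the study for IUGR, 0 passed the threshold by edgeR between IUGR untreated and Normal untreated livers under the headings, where 0.0435% of all genes did. Their log2 fold changes were 0.33 for PDK4, 1.22 for CEL, 0.06 for CXCL12, -0.12 for SDF2L1 and 0.62 for ENHO. The study, which used DESeq2, reported PDK4 and CEL as raised and the other 3 as lowered, so CXCL12 and ENHO had the opposite sign here. It also reported PDK4, CEL, SDF2L1 and IGF1 as regulated by qPCR, IGF1 being suppressed. IGF1 was not among these 5 genes. Averaged over treated and untreated piglets, it had the study's sign here by edgeR, at -0.67 (adjusted p = 0.179). Groups are named as labelled, and each difference between groups, and each spread within groups, holds only if the headings are right. Levels and correlations over all livers do not depend on them.

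INSR, the insulin receptor (gene ID 396755, Sscrofa11.1 chromosome 2, 71797209 to 71939923), averaged 96.0 ± 21.5 CPM over the 46 livers (SD; CPM is the count scaled to a common library size, here by TMM). It ranged between 52.6 and 126 CPM in IUGR treated livers (median 83.3), between 68.6 and 149 CPM in IUGR untreated livers (median 92.7), between 65.5 and 139.8 CPM in Normal treated livers (median 104.9) and between 68.1 and 139 CPM in Normal untreated livers (median 92.3). The lowest liver was pig 46 at 52.6 CPM, and the 4 ranges overlapped throughout. GCGR, the glucagon receptor (gene ID 110255938, chromosome 12, 1149589 to 1157234), averaged 189.8 ± 72.3 CPM. Its 3 highest livers were pig 39 at 519.6 CPM, pig 46 at 378 CPM and pig 38 at 343 CPM, the libraries that stood apart. Without them the mean was 174 ± 36.8 CPM over 43 livers, and the highest liver was at 263 CPM. Its medians in the 4 groups lay close together, at 169 CPM in IUGR treated, 175 CPM in IUGR untreated, 188 CPM in Normal treated and 176 CPM in Normal untreated livers.

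IRS1 and IRS2 are the docking proteins of the insulin receptor. IRS1 (gene ID 100512686, chromosome 15, 128245846 to 128307321) was the steadier, at 19.9 ± 3.9 CPM, with a lowest value of 12.4 CPM in pig 10 and a highest of 30.5 CPM in pig 39. Its biological coefficient of variation within groups (BCV, the spread beyond counting error) was 20.4%, against a median of 29.8% over all tested genes. IRS2 (gene ID 110255858, chromosome 11, 76626158 to 76654639) ranged more widely. It was at 29.3 to 74.3 CPM in IUGR treated livers (median 40.1), 19.9 to 57.4 CPM in IUGR untreated livers (median 44.1), 27.6 to 55.3 CPM in Normal treated livers (median 40.03) and 17.7 to 55.4 CPM in Normal untreated livers (median 38.4). All 4 groups thus shared most of their range, and the low end was held by pig 30 (Normal untreated) and pig 10 (IUGR untreated), which were also among the 3 lowest livers for IRS1.

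AKT1 and AKT2 encode the kinases that relay the insulin signal inside the cell, AKT2 being the form best known for glucose control. AKT1 (gene ID 100126861, on sequence that the assembly does not place on a chromosome) was at 66.2 to 203 CPM in IUGR treated livers (median 74.6), 58.1 to 129 CPM in IUGR untreated livers (median 78.6), 56.3 to 80.9 CPM in Normal treated livers (median 65.3) and 58.2 to 88.8 CPM in Normal untreated livers (median 76.3). Pigs 46, 39 and 38 were the 3 highest, at 203, 189 and 129 CPM. The same 3 pigs were highest for AKT2 (gene ID 100127478, chromosome 6, 48555785 to 48620472), pig 39 at 187 CPM, pig 46 at 161 CPM and pig 38 at 147 CPM. AKT2 began at 67.6 CPM in IUGR treated livers (median 89.6) and at 67.7 CPM in IUGR untreated livers (median 99.5), and spanned 71.1 to 107.9 CPM in Normal treated livers (median 95.2) and 69.9 to 103.6 CPM in Normal untreated livers (median 84.7). Outside pigs 38, 39 and 46 both genes were among the steadier ones: over the 43 livers the BCV was 12.7% for AKT1 and 13.9% for AKT2, against a median of 20.5% over all genes, where over 46 livers it had been 26.3% and 21.9%.

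FOXO1, FOXO3 and PPARGC1A, the nuclear end of the pathway, varied more, and each had a tail of high livers. FOXO1 (gene ID 397077, chromosome 11, 15317222 to 15410059) was at 29.2 to 73.2 CPM in IUGR treated livers (median 46.0), 32.2 to 61.0 CPM in IUGR untreated livers (median 35.8), 36.3 to 113 CPM in Normal treated livers (median 45.4) and 28.9 to 60.2 CPM in Normal untreated livers (median 36.5). FOXO3 (gene ID 733621, chromosome 1, 74626673 to 74760323) was at 47.1 to 120.5 CPM in IUGR treated livers (median 77.0), 43.4 to 123 CPM in IUGR untreated livers (median 58.4), 64.3 to 190.3 CPM in Normal treated livers (median 102.6) and 42.4 to 149 CPM in Normal untreated livers (median 60.5). PPARGC1A (gene ID 397013, chromosome 8, 17841844 to 18527953) was at 13.05 to 78.8 CPM in IUGR treated livers (median 55.8), 18.2 to 91.0 CPM in IUGR untreated livers (median 36.0), 36.6 to 126 CPM in Normal treated livers (median 53.0) and 25.3 to 94.2 CPM in Normal untreated livers (median 35.2). In both sizes of piglet the median of each of the 3 genes was higher in treated than in untreated livers, with wide overlap. Pig 45 (Normal treated) was the highest liver for all 3 genes, at 113, 190.3 and 126 CPM, and pig 48 (Normal untreated) was second for FOXO3 and PPARGC1A. The 3 lowest livers for PPARGC1A were pigs 39, 38 and 46, at 13.05, 18.2 and 24.7 CPM, the reverse of their place for AKT1 and AKT2.

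TRIB3 (gene ID 100518810, chromosome 17, 34808273 to 34819592) was the most variable of the 10. Its BCV of 63.7% was above that of 96.2% of all tested genes, and it stayed at 64.9% without the 3 pigs. It was at 3.65 to 24.7 CPM in IUGR treated livers (median 12.9), 7.3 to 58.6 CPM in IUGR untreated livers (median 22.0), 5.4 to 57.4 CPM in Normal treated livers (median 12.0) and 4.8 to 59.7 CPM in Normal untreated livers (median 13.3). The 3 highest livers, pigs 9, 5 and 64 at 59.7, 58.6 and 57.4 CPM, lay in 3 different groups, and IUGR treated was the group without such a liver.

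**Figure D1:**
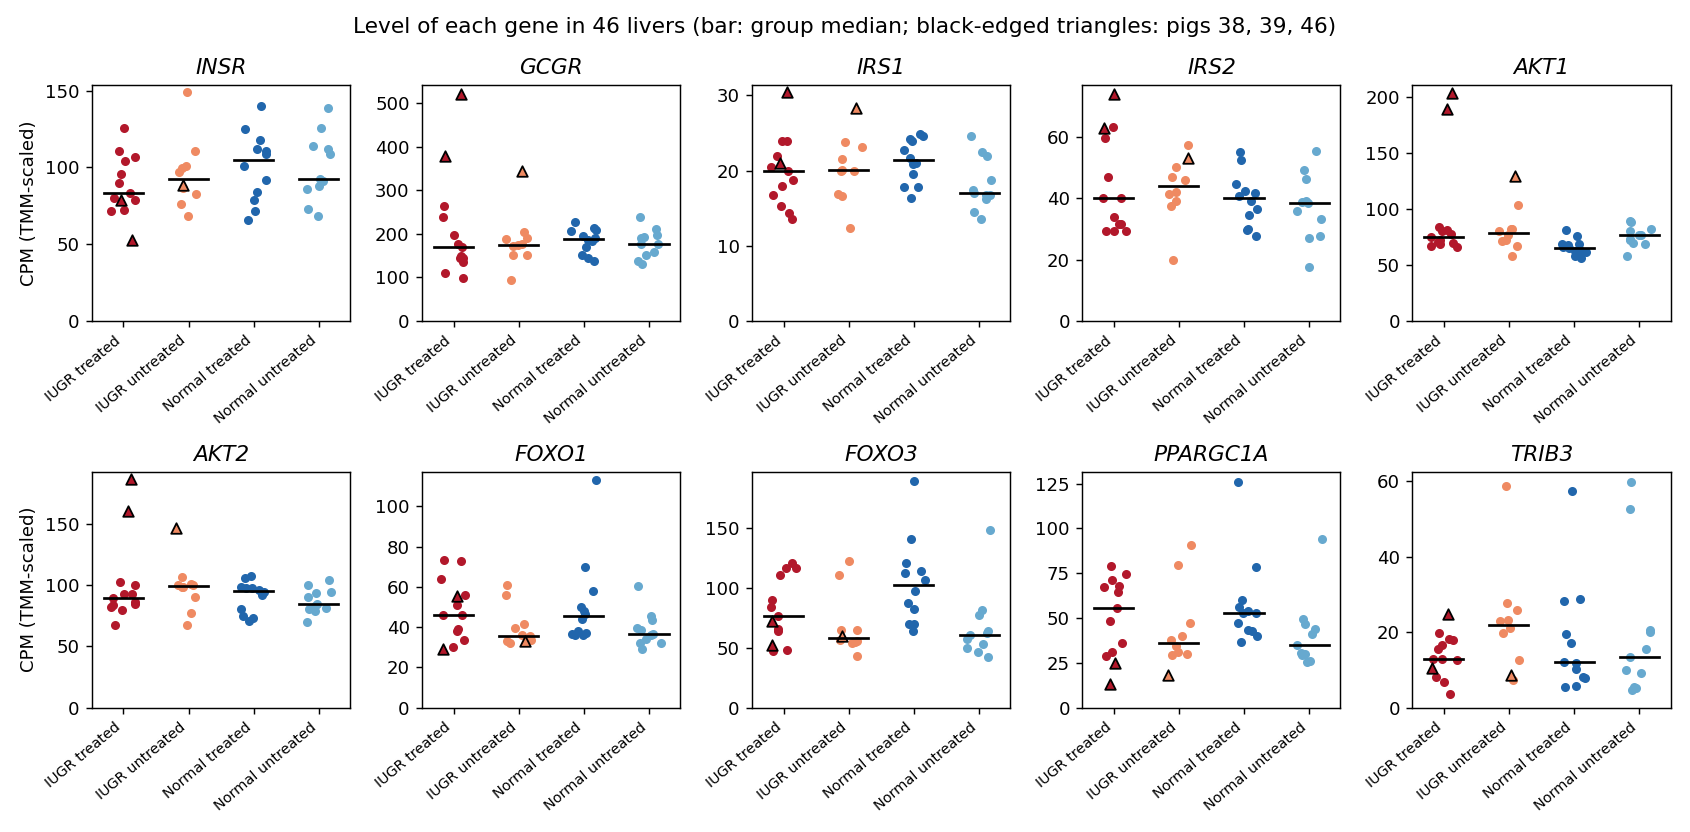
Level of each of the 10 genes in every liver, in CPM on a linear axis from 0, by labelled group; points are livers, bars are group medians, and black-edged triangles mark pigs 38, 39 and 46. The groups overlap for every gene, the triangles lie at the top for GCGR, AKT1 and AKT2 and at the bottom for PPARGC1A, and TRIB3 reaches 57.4 to 59.7 CPM in 3 livers of 3 groups.

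Ranked by mean, Normal treated livers were highest and Normal untreated livers lowest for FOXO1, FOXO3 and PPARGC1A, with both IUGR groups between them. The largest such gap was for FOXO3, at 105 ± 35.6 CPM in Normal treated livers (n = 12) and 67.6 ± 29.4 CPM in Normal untreated livers (n = 11). For INSR, IRS1, IRS2, GCGR, AKT2 and TRIB3, as for these 3, no 2 neighbours in the order of group means were apart by more than the larger of their SDs. AKT1 had 1 such gap, between Normal untreated livers at 75.8 ± 8.9 CPM and Normal treated livers at 66.0 ± 7.0 CPM. For all 10 genes the ranges of the highest and the lowest group overlapped. Levels were not compared between genes, since exon lengths are not in the sources used here.

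Size at birth was compared first, averaging the IUGR against Normal difference of treated piglets and that of untreated piglets. With edgeR's quasi-likelihood test and Benjamini-Hochberg adjustment over 13780 genes, 0 of the 10 genes passed an adjusted p of 0.05, as did 0% of all genes. At an unadjusted p under 0.05 there was 1 of 10, AKT1, against 22.8% of all genes, so the 10 genes moved no more often than the rest. AKT1 had a log2 fold change of 0.30 (SE 0.11, 95% interval 0.08 to 0.52, adjusted p = 0.124), which became 0.09 (adjusted p = 0.54) without pigs 38, 39 and 46. The other 9 lay between -0.17 for FOXO3 and 0.19 for IRS2, 5 of the 10 genes being above 0 and 5 below. For INSR the 95% interval was -0.32 to 0.07. For GCGR it was -0.16 to 0.40 around 0.12, and without pigs 38, 39 and 46 GCGR turned to -0.13 (SE 0.10, adjusted p = 0.643). IRS1, FOXO1 and PPARGC1A also changed sign without these pigs, all within 0.10 of 0. DESeq2 on all 4 groups also called 0 of 10, with 1.66% of all genes called.

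Within untreated piglets, 0 of 10 genes passed between IUGR and Normal livers, where 0.0435% of all genes did, and 0 of 10 had an unadjusted p under 0.05, where 12.5% of all genes did. DESeq2 also called 0 of 10 there, beside 1.02% of all genes when fitted on all 4 groups and 1.6% on the groups compared. Within treated piglets, 0 of 10 passed, where 0.00726% of all genes did, and AKT1 was the 1 gene of 10 with an unadjusted p under 0.05, where 16.7% of all genes had one. Its log2 fold change of 0.49 (SE 0.15, adjusted p = 0.208) in IUGR treated against Normal treated livers became 0.15 (adjusted p = 0.764) without pigs 38, 39 and 46, of which 2 belong to the IUGR treated group. FOXO3 was at -0.36 (SE 0.19, adjusted p = 0.34) in the same comparison, and at -0.30 (adjusted p = 0.9) over 43 livers. DESeq2 called 0 of 10, beside 0.0577% of all genes on all 4 groups and 0.0385% on the groups compared.

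The supplement was compared within each size. In Normal piglets, 0 of 10 genes passed between treated and untreated livers, as did 0% of all genes, and 2 of 10, FOXO3 and FOXO1, had an unadjusted p under 0.05, where 8.53% of all genes had one. FOXO3 had a log2 fold change of 0.63 (SE 0.20, 95% interval 0.22 to 1.04, p = 0.00312, adjusted p = 0.262) and FOXO1 of 0.40 (SE 0.17, adjusted p = 0.502), with PPARGC1A at 0.49 (SE 0.26, adjusted p = 0.63). These 3 values are not separate pieces of evidence, because the 3 genes varied together from liver to liver, as given below. Without pigs 38, 39 and 46, which are not in these 2 groups but bear on the shared estimate of spread, 0 of 10 genes passed, where 0.762% of all genes did. There, 5 of 10 had an unadjusted p under 0.05 against 18.8% of all genes: FOXO3 (adjusted p = 0.0861), AKT1 at -0.19 (adjusted p = 0.136), FOXO1, IRS1 at 0.23 and PPARGC1A. FOXO3 was the 1 gene called by any alternative, DESeq2 on these 2 groups alone (log2 fold change 0.64, adjusted p = 0.0462), where 2.54% of all genes were called. DESeq2 on all 4 groups called 0 of 10, beside 0.244% of all genes. Over the alternatives with another tool, scaling, filter or set of libraries, the adjusted p of FOXO3 was 0.0462 to 0.326.

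In IUGR piglets, 0 of 10 genes passed between treated and untreated livers, where 0.029% of all genes did. An unadjusted p under 0.05 was met by 0 of 10, where 4.54% of all genes met it, and DESeq2 called 0 of 10, beside 0.138% of all genes on all 4 groups and 0.127% on the groups compared. TRIB3 had the largest difference of the 10, with a log2 fold change of -0.72 (SE 0.40, 95% interval -1.51 to 0.08, adjusted p = 1) and of -0.88 (adjusted p = 0.416) over 43 livers. FOXO1, FOXO3 and PPARGC1A were at 0.28, 0.25 and 0.22, none with an adjusted p below 1. Whether the supplement acted differently in the 2 sizes was tested as an interaction, for which 0 of 10 genes and 0% of all genes passed, with 0 of 10 and 6.66% at an unadjusted p under 0.05 and 0 of 10 with DESeq2, beside 0.0434% of all genes. For FOXO3 the interaction was -0.38 (SE 0.29, adjusted p = 0.901), so the larger difference in Normal piglets was not shown to differ from that in IUGR piglets.

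Over the 43 livers, 0 of 10 genes passed in each of the 6 comparisons. The share of all genes that passed was 0% in the mean IUGR comparison, 1.44% between untreated groups, 0% between treated groups, 0.0653% for the supplement in IUGR piglets, 0.762% for it in Normal piglets and 0.00726% for the interaction. An unadjusted p under 0.05 was met by 0, 0, 1, 1, 5 and 0 of the 10 genes in the same order, beside 11.6, 16.1, 6.23, 11.9, 18.8 and 12.1% of all genes. AKT1 was the gene between treated groups, and TRIB3 the gene for the supplement in IUGR piglets.

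**Figure D2:**
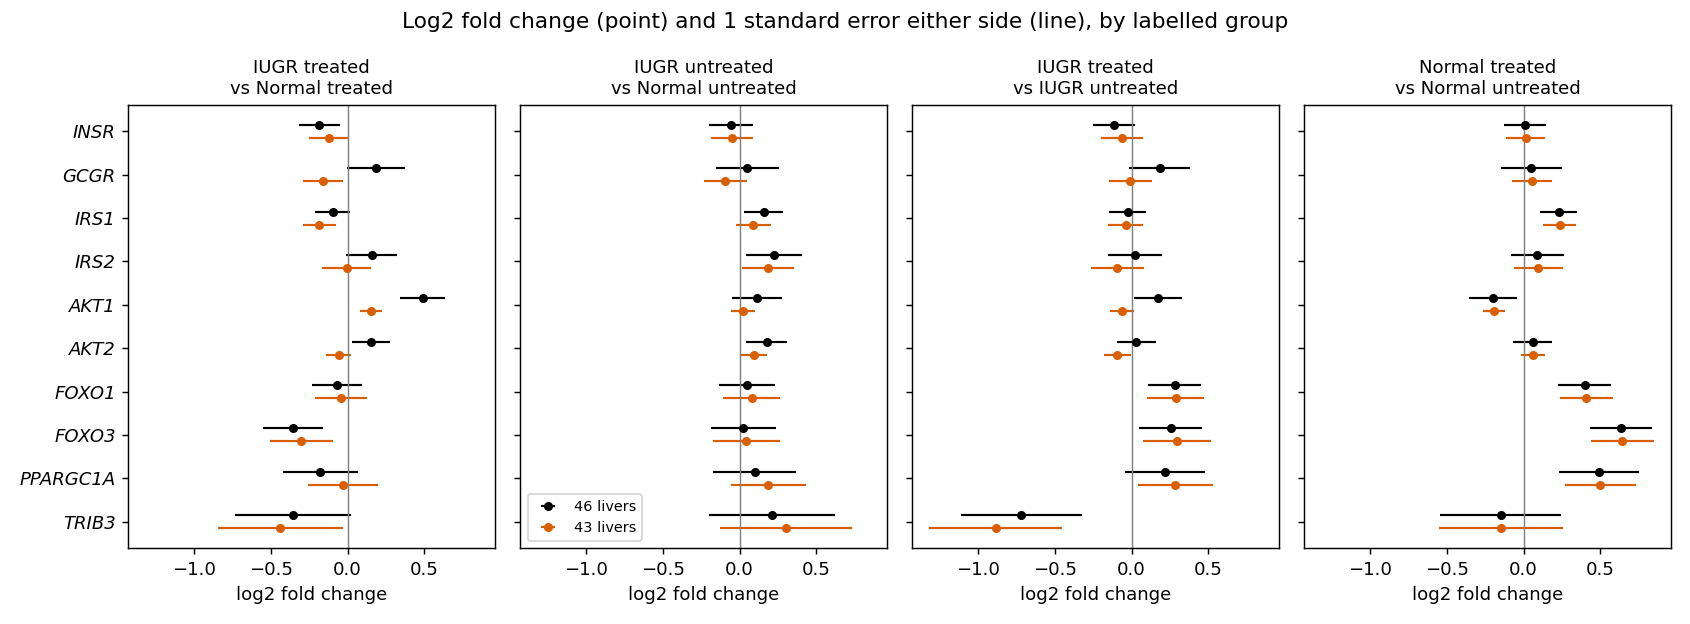
Log2 fold change of each gene (horizontal axis) in 4 comparisons of labelled groups by edgeR, with a line of 1 SE either side; black points are from 46 livers and orange points from the 43 without pigs 38, 39 and 46. AKT1 in IUGR treated against Normal treated livers moves to 0.15 from 0.49 without these pigs, while FOXO3 in Normal treated against Normal untreated livers is at 0.63 and 0.64.

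How the 10 genes varied together was measured over all livers with Spearman's rho of log2 CPM, with Pearson's r beside it, for all 45 pairs, by a two-sided permutation test (100000 permutations) adjusted over the 45. Of these, 12 passed over 46 livers, 6 positive and 6 negative, and 15 over 43 livers, 9 positive and 6 negative, with 11 pairs in both. Such correlations are common in this table: 16.8% of all pairs of tested genes reached the smallest rho called (0.381) over 46 livers, 8.55% positive and 8.27% negative. Over 43 livers 11.7% reached the corresponding 0.382, 6.11% positive and 5.62% negative.

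FOXO1, FOXO3 and PPARGC1A formed the tightest group. FOXO1 and FOXO3 had a rho of 0.852 (r = 0.838), FOXO3 and PPARGC1A of 0.827 (r = 0.809) and FOXO1 and PPARGC1A of 0.785 (r = 0.786), each with an adjusted permutation p of 0.000112, which rests on the smallest raw p that 100000 permutations can give (1e-05). Leaving out the 2 livers farthest from the median of the first gene, r was 0.810, 0.761 and 0.740. Over the 43 livers rho was 0.853, 0.857 and 0.828, so the 3 libraries that stood apart did not carry these relations. With the labelled group means removed, rho was 0.840, 0.755 and 0.724. Inside single groups of 10 to 13 livers it lay between 0.764 and 0.839 for FOXO1 and FOXO3, and between 0.678 and 0.742 for FOXO1 and PPARGC1A. For FOXO3 and PPARGC1A it was 0.841 in IUGR treated, 0.382 in IUGR untreated, 0.776 in Normal treated and 0.609 in Normal untreated livers.

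Both AKT genes ran against this group. Over 46 livers PPARGC1A and AKT2 had the strongest opposing relation, with a rho of -0.604 (r = -0.686, adjusted p = 0.000112 and r = -0.587 without the 2 farthest livers). It was -0.515 (adjusted p = 0.00309) over 43 livers, where FOXO3 with AKT1 (-0.570) and FOXO1 with AKT2 (-0.525) were stronger. Within groups over all 46 livers it was negative in IUGR treated livers (-0.940), IUGR untreated livers (-0.794) and Normal treated livers (-0.867), and was 0.036 in Normal untreated livers. The other 5 pairs of AKT1 or AKT2 with FOXO1, FOXO3 or PPARGC1A had rho between -0.480 and -0.572 over 46 livers and between -0.460 and -0.570 over 43, and all 5 passed in both. For FOXO1 and AKT1, however, r was -0.293 (adjusted p = 0.119), and rho with group means removed was -0.317 (adjusted p = 0.104). The 2 sides also leaned in opposite directions with the library total, as given with the marker lists below.

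AKT1 and AKT2 themselves had a rho of 0.381 (adjusted p = 0.0371) and an r of 0.747 over 46 livers, and 0.242 (adjusted p = 0.231) and 0.256 over 43. This call was marginal, since it was also lost with any 1 of 13 livers left out, pigs 38, 39 and 46 among them, while with group means removed rho was 0.498 (adjusted p = 0.002). GCGR did not pass with either kinase, with a rho of -0.033 for AKT1 and 0.217 for AKT2 (adjusted p = 0.921 and 0.345). Its r with them was 0.501 and 0.550 over 46 livers and -0.330 and -0.016 over 43. IRS1 and IRS2 varied together with a rho of 0.562 (r = 0.644, adjusted p = 0.000514, r = 0.562 without the 2 farthest livers), and of 0.516 (adjusted p = 0.00309) over 43 livers. INSR and AKT2 had a rho of 0.426 (adjusted p = 0.0151) and an r of 0.096 over 46 livers, and 0.614 (adjusted p = 0.00045) and 0.593 over 43. With group means removed its rho over 46 livers was 0.351 (adjusted p = 0.0662).

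Another 4 pairs passed over the 43 livers alone. They were INSR with IRS2 (rho 0.390), IRS1 with FOXO3 (0.405), IRS1 with PPARGC1A (0.431) and IRS2 with PPARGC1A (0.382), with adjusted p between 0.0165 and 0.034. Over 46 livers these had been 0.237, 0.296, 0.219 and 0.154. TRIB3 was related to none of the other 9 in either set.

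**Figure D3:**
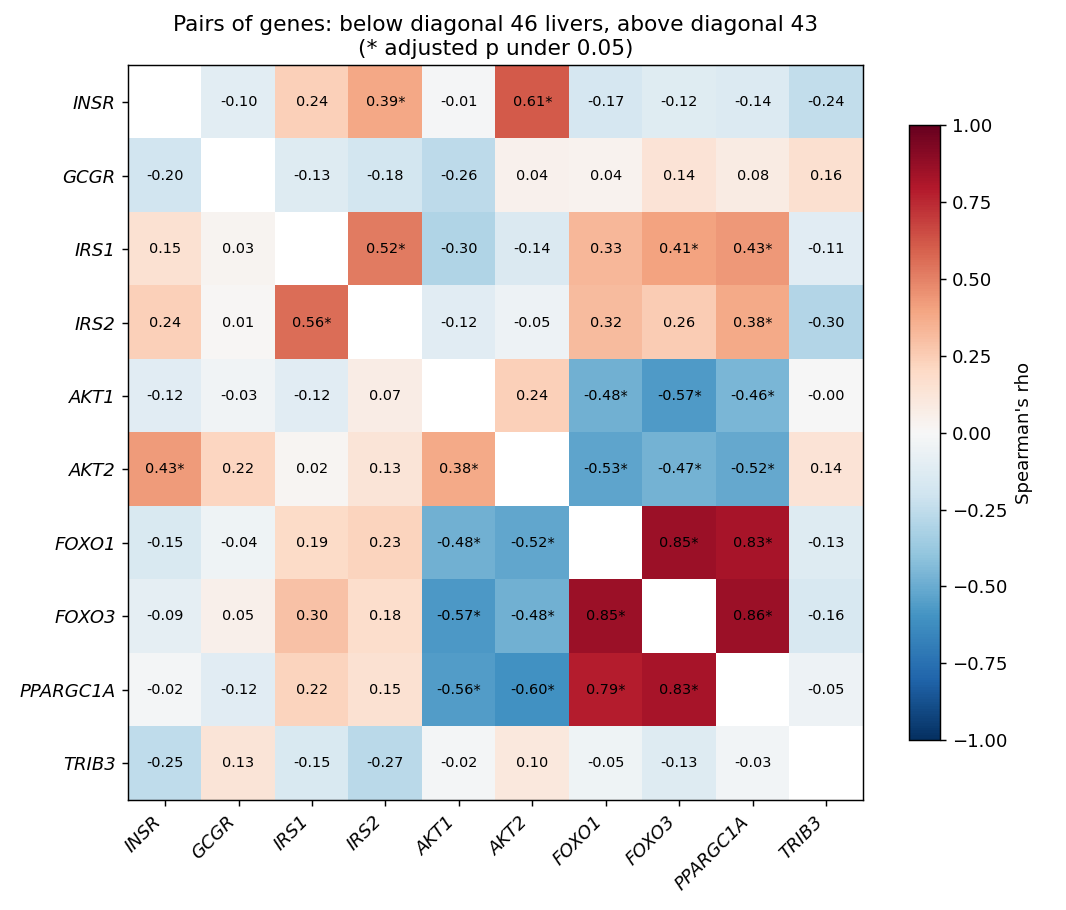
Spearman's rho for the 45 pairs of genes, below the diagonal over 46 livers and above it over 43 without pigs 38, 39 and 46; colour runs between -1 (blue) and 1 (red), and asterisks mark an adjusted permutation p under 0.05. FOXO1, FOXO3 and PPARGC1A form a red block with rho of 0.785 to 0.857, and AKT1 and AKT2 are blue against all 3.

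**Figure D4:**
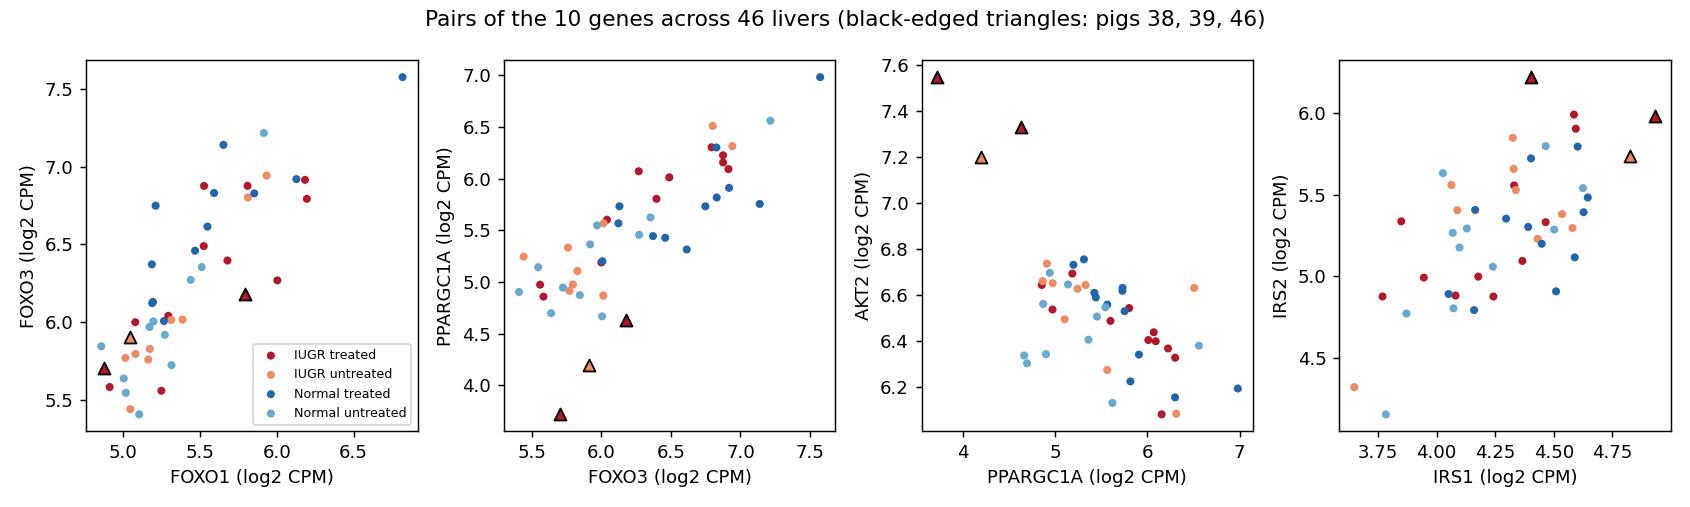
Log2 CPM of 4 pairs of genes in 46 livers, coloured by labelled group, with pigs 38, 39 and 46 as black-edged triangles. FOXO3 rises with FOXO1 (rho 0.852) in all colours, and PPARGC1A with FOXO3 (0.827), though less tightly in IUGR untreated livers (0.382). AKT2 falls as PPARGC1A rises (-0.604) with the triangles at the far end, and IRS2 rises with IRS1 (0.562).

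The 10 genes were next set against 35 other genes. These were 13 raised by FOXO1, CREB or PGC-1alpha in fasting, 10 raised by insulin and 12 listed as ATF4 targets, ATF4 itself among them. Together they made a family of 350 pairs. Of these, 30 passed over 46 livers and 42 over 43 livers, with 26 in both, beside 11.1% and 9.6% of the pairs of the 10 genes with every other tested gene at the same strength. The count of passing pairs over the whole family is therefore near the background. Single genes of the 10 differed in how many partners they had in the table as a whole. Their own shares, for positive rho over 46 livers, are given below for IRS2, TRIB3, FOXO1, FOXO3 and PPARGC1A only.

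For IRS2, 3 of 13 fasting genes passed, where 1.79% of all genes reached a positive rho of that strength (0.428) with it. IGFBP1, a secreted binding protein of insulin-like growth factors that FOXO1 raises and insulin lowers, had a rho of 0.832 with IRS2 (r = 0.822, adjusted p = 0.0005, r = 0.774 without the 2 farthest livers) and of 0.815 over 43 livers. IGFBP1 spanned 30.9 to 898 CPM (median 302). No other tested gene had a higher rho with IRS2 over the 43 livers. KLF15, a glucocorticoid-raised factor of amino acid breakdown, followed at 0.580 (adjusted p = 0.00127; 0.497 over 43), and G6PC, the last enzyme of glucose release, at 0.430 (adjusted p = 0.0364), was at 0.313 (adjusted p = 0.181) over 43.

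For TRIB3, 5 of the 12 genes on the ATF4 list passed, where 1.15% of all genes reached a positive rho of 0.428 with it. These were CHAC1, which degrades glutathione, at 0.698 (r = 0.737), ATF4 itself at 0.654 (r = 0.643), ATF3 at 0.515, DDIT3, the factor CHOP, at 0.455, and SLC7A11, a cystine carrier, at 0.428, with adjusted p between 0.0005 and 0.0386. All 5 passed over 43 livers as well, CHAC1 at 0.738 and ATF4 at 0.659. Without the 2 farthest livers r was 0.677 for CHAC1 and 0.614 for ATF4. CHAC1 was low throughout, at 0 to 12.8 CPM (median 0.457), so its rank order among low livers rests on few counts. None of the 13 fasting or 10 insulin-raised genes passed with TRIB3 in either direction.

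FOXO1, FOXO3 and PPARGC1A shared PDK4, the kinase that shuts off pyruvate oxidation, with a rho of 0.445, 0.505 and 0.640 (adjusted p = 0.0297, 0.007 and 0.0005), and TXNIP, a brake on glucose uptake, with 0.456, 0.510 and 0.572 (adjusted p = 0.0259, 0.00797 and 0.000875). All 6 also passed over 43 livers. KLF15 passed with FOXO1 (0.485) and FOXO3 (0.539) over 46 livers and with all 3 over 43 (0.654, 0.686 and 0.678). G6PC was at 0.258, 0.411 and 0.317 over 46 livers, none passing, and passed with FOXO3 (0.542) and PPARGC1A (0.600) over 43. PCK1, which commits carbon to glucose, was at -0.150, -0.027 and -0.114, and IGFBP1 at 0.208, 0.173 and 0.216, none of which passed. Of the 13 fasting genes, 3 passed with FOXO1, 3 with FOXO3 and 2 with PPARGC1A over 46 livers, all positive, where 4.18, 4.8 and 8.48% of all genes reached a positive rho of 0.428 or more with them.

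INSR had a positive rho with the sestrins SESN1 (0.725) and SESN3 (0.671) and with GYS2, the liver glycogen synthase (0.688), each with an adjusted p of 0.0005, and a negative one with FASN, the fatty acid synthase (-0.529, adjusted p = 0.00443). All 4 passed over 43 livers, where rho was 0.713, 0.649, 0.668 and -0.490. AKT2 passed in both sets with PC, pyruvate carboxylase (0.583), and SCD, a fatty acid desaturase (-0.575). GCGR passed in both with MLXIPL, the carbohydrate-sensing factor ChREBP (0.578), and with SESN2 (0.456), and PPARGC1A with MLXIPL in the opposite direction (-0.531). ATF4 was negatively related to FOXO3 (-0.439) and PPARGC1A (-0.464). AKT1 and IRS1 passed with none of the 35 over 46 livers. Shares of all genes are not given for the pairs of this paragraph, and whether these exceed the background was not tested.

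**Figure D5:**
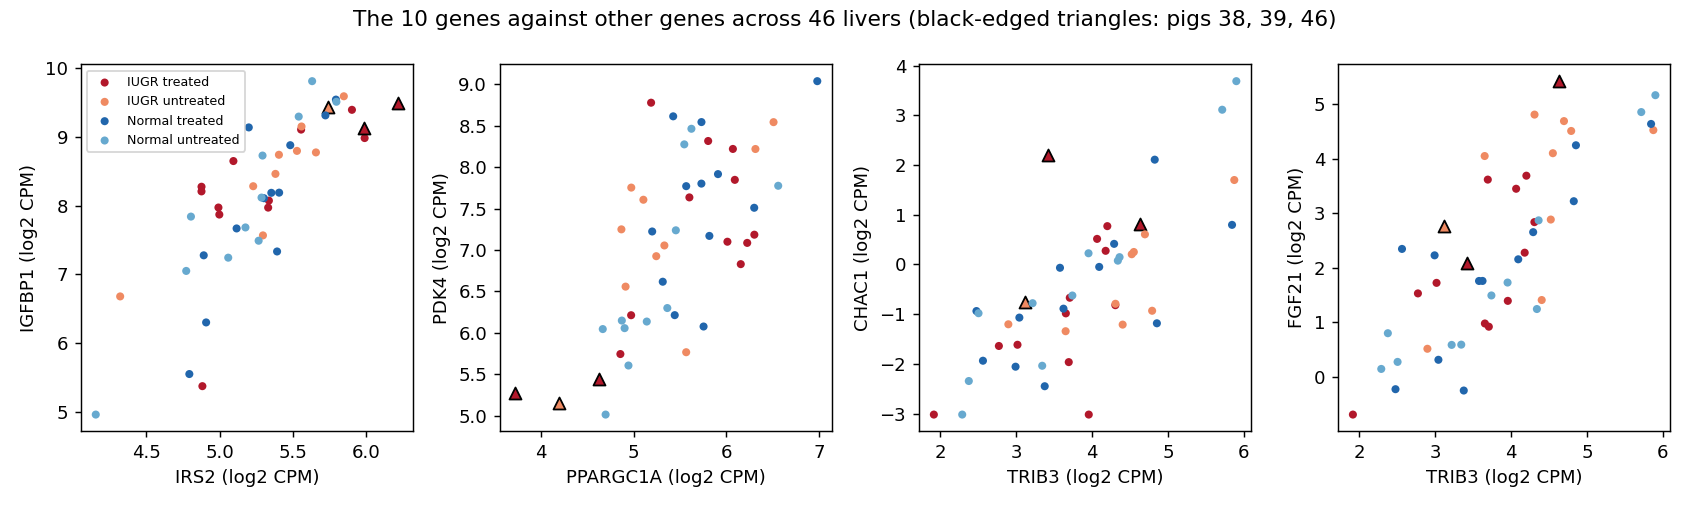
Log2 CPM of 3 of the 10 genes against other genes in 46 livers, coloured by labelled group, with pigs 38, 39 and 46 as black-edged triangles. IGFBP1 rises with IRS2 (rho 0.832), PDK4 with PPARGC1A (0.640), and CHAC1 (0.698) and FGF21 (0.782) with TRIB3, with all 4 groups along each cloud.

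Among all tested genes, those most like each of the 10 over the 43 livers were as follows. The 3 with the highest rho were RORA, PTPN1 and TP53INP1 for FOXO1 (0.855, 0.807 and 0.788), RORA, PER1 and MLXIP for FOXO3 (0.840, 0.837 and 0.834) and TP53INP1, MLXIP and LPIN2 for PPARGC1A (0.854, 0.838 and 0.838). RORA, a nuclear receptor of the circadian clock, was thus first for both FOXO genes, and PER1 is a clock gene too. PTPN1 encodes the phosphatase PTP1B, which removes phosphate from the insulin receptor. For IRS2 they were IGFBP1, PNRC1 and BCL10 (0.815, 0.711 and 0.691), and for IRS1 the weaker A1CF, NUP98 and CEP120 (0.641, 0.606 and 0.589).

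For INSR they were ERBB3, another receptor of the tyrosine kinase class, GAREM1 and NFATC1 (0.827, 0.826 and 0.820). For GCGR they were FAR2, GTPBP1 and CHRD (0.703, 0.691 and 0.688), for AKT1 IRAK1, GPS1 and PPP1CA (0.814, 0.786 and 0.777) and for AKT2 MGRN1, YPEL3 and ARHGEF18 (0.876, 0.875 and 0.872). For TRIB3 they were GLI1, a factor of hedgehog signalling, FGF21, a liver hormone that ATF4 raises, and EXTL1 (0.802, 0.793 and 0.753). FGF21 spanned 0.495 to 42.8 CPM (median 4.45). These are descriptions, picked as the highest among all other tested genes, and carry no test. Over 46 livers the rho of the same pairs ran from 0.36 (CEP120 with IRS1) to 0.898 (MGRN1 and YPEL3 with AKT2). Some fell, as FAR2 with GCGR to 0.407 and MLXIP with PPARGC1A to 0.511, and others rose, as GTPBP1 with GCGR to 0.747.

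Other genes of the pathway were counted in lists. None of the genes in the following lists passed the threshold over 46 livers in any of the 6 comparisons. They were 20 genes listed as the insulin relay, 15 as brakes on insulin signalling and 26 as the glucagon and cyclic AMP relay. The others were 13 fasting genes, 10 insulin-raised genes, 12 ATF4 targets and 12 PGC-1alpha partners. Not every gene acts in the direction of its list's name, as TSC1 and TSC2 in the relay list and SH2B1 among the brakes. In the mean IUGR comparison the median log2 fold change was 0.04 for the insulin relay, 0.12 for the brakes, 0.11 for the glucagon relay, 0.22 for the fasting genes, 0.01 for the insulin-raised genes, -0.11 for the ATF4 targets and -0.05 for the PGC-1alpha partners, beside 0.01 for all genes. Unadjusted p under 0.05 was met by 6 of 20, 3 of 15, 6 of 26, 3 of 13, 2 of 10, 4 of 12 and 1 of 12 genes of these lists, beside the 22.8% of all genes.

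The smallest p in each list belonged to TSC2 (0.28, adjusted p = 0.112) and SHC1 (0.19, adjusted p = 0.132) in the relay and to SOCS1 (0.77, adjusted p = 0.106) and INPPL1 (0.31, adjusted p = 0.114) among the brakes. In the glucagon relay they were SIK1 (1.15, adjusted p = 0.0943) and ADCY6 (0.26, adjusted p = 0.109), among the fasting genes KLF15 (0.33, adjusted p = 0.146) and PC (0.36, adjusted p = 0.151), and among the insulin-raised genes THRSP (-0.62, adjusted p = 0.116) and FASN (0.50, adjusted p = 0.183). The ATF4 targets had CEBPB (0.59, adjusted p = 0.0943) and ATF3 (1.98, adjusted p = 0.0991), and the PGC-1alpha partners ESRRA (0.33, adjusted p = 0.081) and SIRT1 (-0.34, adjusted p = 0.264). Over 43 livers these shrank for most genes, SIK1 to 0.48 and ATF3 to 0.66. There, 2 genes of the lists passed between IUGR untreated and Normal untreated livers, TXNIP at 0.69 (adjusted p = 0.0337) and ATF3 at 2.88 (adjusted p = 0.0419), where 1.44% of all genes passed.

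The hormones themselves are not made by the liver. INS and GCG, the genes of insulin and glucagon, were at most at 0.118 and 0.058 CPM in any liver and were not tested. The insulin-like growth factors were both measured, IGF1 at 0.816 to 44.9 CPM and IGF2, the fetal form, at 2717 to 10603 CPM. In the mean IUGR comparison IGF1 was at -0.67 (SE 0.30, adjusted p = 0.179) and IGF2 at 0.29 (SE 0.12, adjusted p = 0.161), and over 43 livers at -0.51 and 0.14 (adjusted p = 0.486 and 0.635).

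The 10 genes were last set against 10 summed marker lists, the library total and the share of the 10 most abundant genes, a family of 120 pairs. Of these, 4 passed over 46 livers and 2 over 43. Among all other tested genes, 4.11% of such pairs reached the smallest rho called (0.463) over 46 livers and 0.954% the corresponding 0.541 over 43, so over 46 livers the 10 genes had no more such relations than the rest. TRIB3 varied with the stellate cell markers (6 of 6 in the table, among them COL1A1 and DCN, 206 to 1793 CPM summed) at a rho of 0.569 (adjusted p = 0.0084) and of 0.567 (adjusted p = 0.012) over 43 livers. With the stellate sum, 2.74% of other genes reached a positive rho of 0.463 over 46 livers and 1.67% one of 0.541 over 43. The stellate sum was 319 to 1793 CPM in IUGR treated, 404 to 976 CPM in IUGR untreated, 206 to 1024.5 CPM in Normal treated and 379 to 809.5 CPM in Normal untreated livers. GCGR varied with a pancreatic list (4 of 6 in the table, 0.232 to 3.69 CPM summed, INS and GCG near 0) at 0.466 (adjusted p = 0.0405), and at 0.541 (adjusted p = 0.0126) over 43, strengths that 0.174% and 0.0871% of other genes reached. So low a sum rests on few counts. GCGR with T and NK cell markers (0.478) and INSR with immediate early genes (-0.463) passed over 46 livers (adjusted p = 0.0405 each) and not over 43 (adjusted p = 0.148 and 0.114). With the stellate sum over 43 livers, IRS2 had a rho of -0.440, FOXO1 of -0.387, FOXO3 of -0.431, PPARGC1A of -0.389 and AKT2 of 0.383, none passing (adjusted p between 0.106 and 0.121). The part of cell composition in the relations among these 5 genes was not tested. With the log2 library total over 46 livers, rho was 0.419 for AKT1, 0.357 for AKT2, -0.294 for FOXO1, -0.307 for FOXO3 and -0.441 for PPARGC1A. None of these passed, but r did for AKT1 (0.725), AKT2 (0.61) and PPARGC1A (-0.517). Over 43 livers rho was 0.289, 0.215, -0.261, -0.255 and -0.317, and neither measure passed. The part of library total in the opposing relations was not tested.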

How the data were processed

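Liver RNA of 46 piglets was sequenced as paired-end reads, and the authors mapped clean reads to Sscrofa 11.1. The deposited table holds their estimated counts, 1 value for each gene and liver without scaling for depth or length, of which 85.9% are whole numbers. Which program counted them is not given in the labels or methods used here. Counts were rounded to whole numbers, columns were assigned by the piglet number in their heading, and groups were taken from the sample labels. The closest of 1035 library pairs had a chi-square of 25.4 for each gene, and none was treated as a duplicate. All 18440 genes matched the RefSeq annotation by gene ID, from which the positions (gene spans) were read. No other columns of per-sample values were left out (0).

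Groups were tested by edgeR's quasi-likelihood method (edgeR 4.0.16 in R 4.3.3), with robust fitting, in 1 model of all 46 libraries with a mean per group. Libraries were scaled by TMM, filterByExpr with a minimum count of 10 chose the genes, and p-values were adjusted over 13780 genes at 0.05. The study's methods name DESeq2, tried here as an alternative (DESeq2 1.42.0, beside limma 3.58.1). SE was taken from the F statistic. Correlations used log2 CPM (prior count 2) and 100000 permutations (numpy 2.4.6, scipy 1.17.1), and 20000 where a library was left out. Scripts were tested on simulated data. The libraries of 15036591 to 19340218 counts limit precision by counting error, and intervals between groups hold the spread between piglets as well.

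The 10 genes and the gene lists were chosen with earlier results of these data known. All 10 are named. From each pathway list those that passed are named, or the 2 with the smallest p in the mean IUGR comparison where none did, and the genes most like each member are the 3 with the highest rho over 43 livers. The comparison with 35 genes of 3 lists was added after the data were seen, and the partners named from it were picked for passing or for their known role. Listed genes CTRB1, G6PC1 (listed as G6PC), HBA, KRT7, NR4A1, PIK3R3 and PRSS1 had no row under these symbols, and TF was left out because its symbol stood on more than 1 gene.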

Additional observations from a re-analysis of the deposited data

Results flagged for a closer look

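Only the IUGR untreated group, with 10 livers, was of a size at which single livers were checked for standing apart by Dixon's ratio. On normally distributed values this flags about 1 in 20 groups by chance, but it was used here on CPM without a log. For 5 of the 10 genes the highest or lowest liver stood apart. The share over all tested genes was not measured, so this count cannot be read as an excess for these genes. Pig 12 was highest for INSR at 149 CPM, pig 38 for GCGR at 343 CPM and for AKT2 at 147 CPM, and pig 5 for TRIB3 at 58.6 CPM, while pig 10 was lowest for IRS2 at 19.9 CPM. Pig 38 is 1 of the 3 libraries that stood apart across all genes. No interaction of size and supplement passed the threshold for any of the 10 genes.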

How the results depend on the processing

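No paired analysis was possible because the groups share no replicate number and the mother of each piglet is not in the labels used here. The count of the 10 genes called stayed at 0 in the 6 comparisons under every alternative except DESeq2 on the groups compared, which called 1 (FOXO3) between Normal treated and Normal untreated livers. Leaving out single libraries left these counts at 0. DESeq2's size factors moved the all-gene median of the 6 comparisons by -0.0153 to 0.00894 (log2). In the mean IUGR comparison the sign turned for IRS1 (-0.0463), GCGR (-0.126), FOXO1 (0.0181) and PPARGC1A (0.0804) without pigs 38, 39 and 46, and for IRS1 (-0.0661), GCGR (-0.17), FOXO1 (0.0528), PPARGC1A (0.0757) and TRIB3 (0.24) under limma voom with sample weights, all uncalled. Leaving out single libraries turned it for IRS1 (-0.00363 to 0.0592), FOXO1 (-0.0526 to 0.0788), PPARGC1A (-0.13 to 0.0645) and TRIB3 (-0.21 to 0.0918). Of the 45 pairs, 12 passed with Pearson's r, 10 with group means removed, 11 with DESeq2 size factors, 12 with a prior count of 0.5 and 11 to 12 with a library left out. GCGR with AKT1 (rho -0.0327) turned to 0.501 under Pearson's r and 0.178 with group means removed (-0.103 to 0.0158 with a library left out), and AKT1 with AKT2 missed the threshold in 13 of 46 such fits (0.338 to 0.431) and with DESeq2 size factors (0.362, adjusted p = 0.0502). INSR with AKT2 and FOXO1 with AKT1 missed it with Pearson's r (0.0956 and -0.293) and with group means removed (0.351 and -0.317). The pairs with marker lists fell to 2 without the 3 pigs. The lowest count of any of the 10 genes was 59, and depth was not varied. The cause of these changes was not tested.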
